A study of Mus musculus with 20 samples.

Results

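Receptor genes for glutamate, GABA and glycine were described in mouse lumbar dorsal root ganglia (DRG), where the cell bodies of sensory neurons lie, after sciatic nerve transection. Members were taken by gene symbol: Gria, Grid, Grik and Grin genes with a number, the Grm genes, the Gabr subunit genes, Gabbr1, Gabbr2 and the Glra and Glrb genes. The rule found 54 of the 78258 genes in the count table, of which 52 encode receptor subunits. The other 2 are the gene of a scaffold protein and Grin1os, an antisense transcript of Grin1. The 52 subunits comprise 4 AMPA, 5 kainate, 7 NMDA, 2 delta and 8 metabotropic (mGlu) glutamate receptor genes, with 19 GABA-A, 2 GABA-B and 5 glycine receptor genes.

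RNA came from 10 male mice, 5 per genotype, with 1 library from the contralateral and 1 from the ipsilateral L4 to L6 ganglia of each mouse, which gives 4 groups of 5 libraries. The conditional knockout (cKO) mice were Ahr fl/fl Thy1CRE-ERT2/EYFP: Ahr, which encodes the aryl hydrocarbon receptor, was floxed on both alleles, and the Thy1 promoter drove a tamoxifen-inducible Cre. Control mice were Ahr f/f or f/+, and their labels name no Cre. Both genotypes received tamoxifen at 100 mg/kg i.p. on 5 days, at 17 weeks of age, and the sciatic nerve was cut 4 weeks later. Ganglia were collected 1 day after the lesion, so the contralateral ganglia came from lesioned animals and are not those of naive mice. One label field reads spinal cord injury; the protocol's sciatic nerve lesion was followed. Thy1-driven Cre acts only in cells that express it, and other cells of the ganglion keep Ahr.

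Glutamate opens the AMPA, kainate and NMDA channels, each built of several subunits, and activates the G protein-coupled mGlu receptors. GABA-A and glycine receptors are chloride channels, and the GABA-B receptor, a pair of Gabbr1 and Gabbr2 products, couples to inhibitory G proteins. Sensory neurons release glutamate in the spinal cord and carry many of these receptors on their central terminals, where they tune transmitter release. Their cell bodies in the ganglion receive almost no synapses, and they keep chloride high, so GABA-A receptors depolarise them.

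Promoter sequence is shown for members that moved in the same direction in both genotypes, Gabra5 and Grik3 upward and Gria2 and Gabrb2 downward, since a shared short motif would be visible there. The 250 bases upstream of the start are printed 5′ to 3′ on the coding strand, from RefSeq on GRCm38.p6, which is not necessarily the build of the counts. They were searched on both strands for GCGTG, the core of the AhR binding element, TGANTCA, the AP-1 site, and TGACGTCA, the cAMP response element. Capitals mark matches. The windows are chr7:57510060-57510309 on the minus strand for Gabra5, chr4:125490446-125490695 on the plus strand for Grik3, chr3:80802836-80803085 on the minus strand for Gria2 and chr11:42420190-42420439 on the plus strand for Gabrb2, for which the first of 3 listed start sites is shown.
Gabra5: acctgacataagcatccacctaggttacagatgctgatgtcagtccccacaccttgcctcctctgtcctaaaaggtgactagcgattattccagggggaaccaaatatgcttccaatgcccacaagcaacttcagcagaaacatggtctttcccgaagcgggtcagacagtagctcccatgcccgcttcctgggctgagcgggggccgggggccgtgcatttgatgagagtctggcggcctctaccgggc
Grik3: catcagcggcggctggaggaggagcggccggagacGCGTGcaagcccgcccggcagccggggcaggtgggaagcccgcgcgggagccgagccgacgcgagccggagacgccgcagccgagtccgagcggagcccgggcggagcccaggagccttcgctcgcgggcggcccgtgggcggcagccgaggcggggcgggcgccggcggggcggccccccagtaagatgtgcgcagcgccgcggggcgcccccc
Gria2: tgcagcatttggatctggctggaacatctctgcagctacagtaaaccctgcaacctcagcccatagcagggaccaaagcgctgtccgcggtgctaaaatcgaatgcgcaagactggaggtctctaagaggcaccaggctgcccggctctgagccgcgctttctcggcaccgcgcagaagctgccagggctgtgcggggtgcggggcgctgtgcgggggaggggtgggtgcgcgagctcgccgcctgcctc
Gabrb2: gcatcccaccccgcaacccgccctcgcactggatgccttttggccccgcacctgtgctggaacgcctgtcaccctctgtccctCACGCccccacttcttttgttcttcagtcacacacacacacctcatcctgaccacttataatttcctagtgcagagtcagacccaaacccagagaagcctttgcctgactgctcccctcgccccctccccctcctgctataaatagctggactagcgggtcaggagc
The Grik3 window held GCGTG 215 bases before the start, and the Gabrb2 window held it on the opposite strand, printed as CACGC, 167 bases before the start. The windows of Gabra5 and Gria2 held none of the searched letters. GC content was 82.0% for Grik3, 64.8% for Gria2, 58.8% for Gabrb2 and 56.4% for Gabra5, against a median of 52.4% over 32851 promoters. GCGTG occurred in 13 of 43 windows of the 36 members with an entry (30.2%) and in 28.2% of all promoters. TGANTCA occurred in 2 of the 43 windows and in 6.75% of all promoters, and TGACGTCA in 0 of the 43 and in 1.55%. A match is a description of letters, not a bound site.

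Libraries held 76150333 to 118537209 exonic counts. Values below are in CPM, counts scaled to a common library total, normalised by TMM, which corrects for composition between libraries. Sensory neuron markers summed to 13643 to 16376 CPM in every library, and of 10 spinal cord markers, which summed to 17.6 to 31.3 CPM, Opalin, Mnx1 and Olig2 stayed under 0.1 CPM throughout. Of the 6 of them that were tested, the oligodendrocyte genes Mog and Mobp were called higher after injury in control mice (log2 fold change 1.89 and 2.08, adjusted p = 0.00402 and 0.0320, edgeR) and 0 were called in cKO mice, and their part in the results was not tested. The lesion marker Atf3 averaged 11.3 CPM contralaterally and 426 CPM ipsilaterally in control mice, and 9.23 and 417 CPM in cKO mice. Ahr, the targeted gene, averaged 24.2 ± 2.10 CPM in control and 20.4 ± 0.536 CPM in knockout contralateral ganglia (SD, n = 5), where the groups did not overlap but the adjusted p was 0.103 (edgeR). Ipsilaterally it had 34.4 ± 2.86 and 31.9 ± 2.94 CPM, and the groups overlapped. Thy1, whose promoter drives the transgene, was called higher in cKO mice on both sides (log2 fold change 0.77 and 0.63).

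The contralateral cKO libraries were not uniform. Summed fibroblast markers (7 genes) reached 2244, 1984 and 1688 CPM in mice H64, H95 and H100, above the highest of the 10 control libraries (1519 CPM), and were 1009 and 937 CPM in H61 and H99. The ipsilateral library of H100, at 1559.5 CPM, was also above that control value and was kept in every fit that left out the 3 contralateral ones. Summed kainate receptor mRNA was 463, 461 and 483 CPM in the first 3 and 536 and 565 CPM in the last 2. GABA-A receptor mRNA showed the same split, with 356, 363 and 385 CPM against 438 and 453 CPM. Summed neuron markers were also lower in the first 3 (14601, 13917 and 14794 CPM) than in H61 (15169 CPM) and H99, whose 16376 CPM was the highest of all 20 libraries. Summed macrophage markers were higher in the first 3 (250.1, 186 and 177 CPM) than in H61 and H99 (123 and 101 CPM). Muscle markers stood at 1747 CPM in the contralateral library of H100, against 5.43 to 660.3 CPM in the other 19. The part of these differences in the results was not tested, and values without the 3 fibroblast-rich contralateral libraries are given beside the injury results of the receptor and partner genes described here whose call they change or whose called value they move by over 1.5 times. In a bulk sample, fewer cells of a type and less RNA per cell cannot be told apart.

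Of the 52 subunits, 45 passed the filter on low counts. The 7 that did not were Grin2b, Grm2, Grm6, Gabra6, Gabrp, Glra1 and Glra4, with at most 116 counts over all 20 libraries. A mean of at least 1 CPM in some group was reached by 33 members, at least 10 CPM by 26 and at least 100 CPM by 7. Levels of different genes are compared as CPM per kilobase of merged exons, a scale that understates genes with long untranslated exons such as Gria2 (15548 bases).

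In control contralateral ganglia, the most abundant subunit mRNAs per kilobase were those of the GABA-B receptor and of the kainate subunit Grik1. Gabbr1, which carries the GABA-binding subunit, stood at 64.7 CPM per kilobase and Gabbr2, the G protein-coupling partner, at 43.7. Grik1, which encodes GluK1, the characteristic kainate subunit of small sensory neurons, stood at 57.1 and made up 66.2% ± 0.738 of kainate receptor mRNA on this scale (SD, n = 5). The high-affinity kainate subunits Grik5 and Grik4, which need a partner of the Grik1 to Grik3 group, came next at 12.3 and 11.9, with Grik3 at 3.87 and Grik2 at 1.099.

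Among AMPA subunits Gria4 led at 13.6 CPM per kilobase, followed by Gria1 at 4.20, Gria3 at 2.55 and Gria2 at 1.68. Gria2, the subunit whose edited form blocks calcium entry, thus held 7.59% ± 0.326 of AMPA receptor mRNA. Grin1, the obligate NMDA subunit, stood at 11.4 CPM per kilobase, and Grin3a, a subunit that lowers calcium entry, at 3.02. The Grin2 genes that supply the glutamate site were lower, with Grin2d at 0.791, Grin2c at 0.176 and Grin2a at 0.0102. Grin1 and Grin1os share 1307 bases of exon on opposite strands, 13.47% of the Grin1 exons, and 32.1% of the Grin3b exons lie opposite Tmem259. The strand setting of the counting is not given in the sources used here, so reads of these partners cannot be told apart.

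Grm7 (12.7 CPM per kilobase), Grm4 (5.98) and Grm8 (1.96), the mGlu genes whose products inhibit adenylyl cyclase at nerve terminals, held most of the mGlu mRNA. Grm3 (0.315) and the phospholipase C-coupled Grm5 (0.123) were scarce. Of the GABA-A subunits described here, the highest were Gabra3 (5.33), Gabrg1 (4.54), Gabra2 (4.14), Gabra5 (2.87) and Gabrb2 (2.31). Glycine receptor mRNA was almost wholly Glrb, the subunit that binds the scaffold gephyrin, at 39.5 CPM per kilobase and 99.6% ± 0.1602 of the class. The glycine-binding subunits Glra2 and Glra3 passed the filter but averaged 0.339 and 0.102 CPM.

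**Figure D1:**
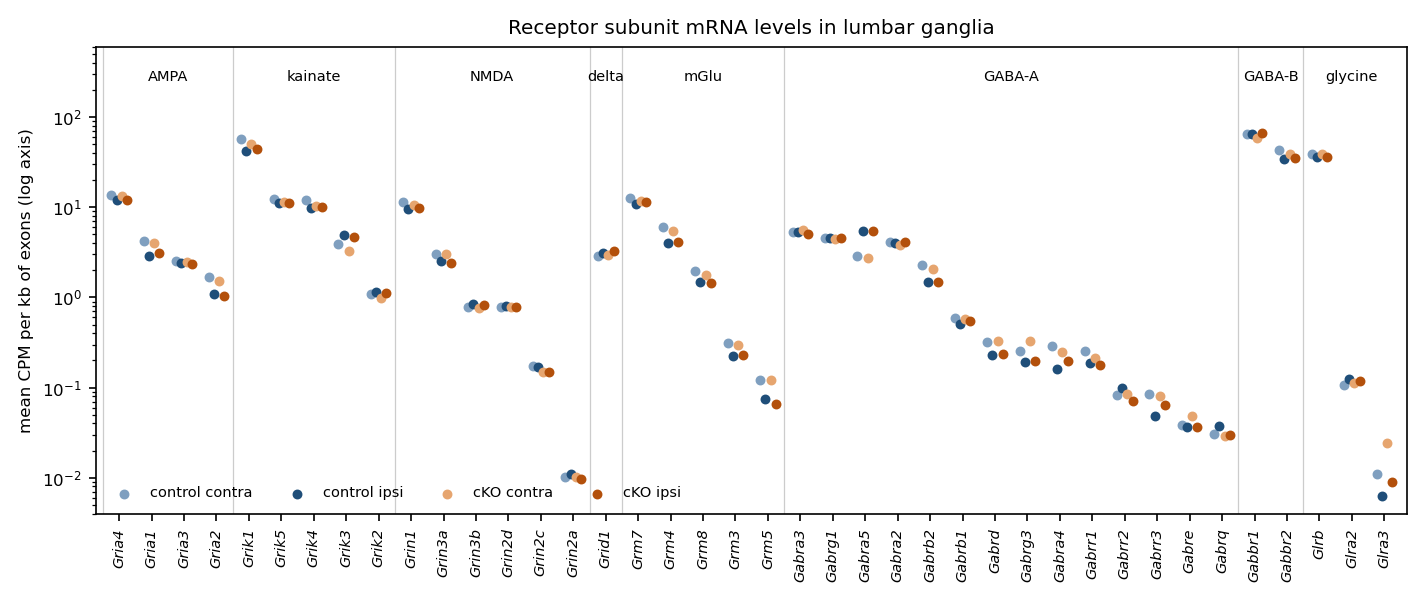
Mean level of the receptor subunits described here that passed the filter, in CPM per kilobase of merged exons on a log axis, ordered by level within its class; each colour is 1 of the 4 groups (5 libraries each). Gria4, Grik1, Grin1, Grm7, Gabbr1 and Glrb lead their classes in every group, and the 4 groups lie close together for most subunits, with Gabra5 among the exceptions.

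The first comparison was the effect of nerve transection in control mice, ipsilateral against contralateral. Of the 45 tested subunits, 22 were called at an adjusted p under 0.05 (edgeR), 3 higher and 19 lower. That is 48.9% of the members, against 29.9% of all 28564 tested genes. Lower calls made up 42.2% of members and 16.0% of all genes, and higher calls 6.67% and 13.8%. Among genes with at least 1 CPM in some group, 21 of 33 members were called (63.6%, background 38.2%) and 18 were lower (54.5%, background 21.1%). The median log2 fold change of the members was -0.21, and that of all tested genes was -0.00. The ranges of both sides were apart for 17 members (37.8%, background 23.6%).

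In cKO mice the same lesion gave 16 called members, 4 higher and 12 lower. That is 35.6% of the members, close to the 31.3% of all genes, with lower calls at 26.7% against 15.1% and higher calls at 8.89% against 16.2%. Among genes with at least 1 CPM, 15 of 33 members were called (45.5%, background 39.9%) and 11 were lower (33.3%, background 19.6%). The median log2 fold change was -0.14, against -0.03 for all genes, and 9 members had ranges apart (background 20.2%). With the mouse as a block, so that each ganglion is compared with its partner from the same animal, 20 members were called in cKO mice, 15 of them lower (background 31.6% called, 15.2% lower), and 21 in control mice (background 30.0%). Without the 3 fibroblast-rich contralateral libraries, which leaves 2 contralateral cKO libraries, 19 members were called in cKO mice, 17 of them lower (background 23.2%, lower 10.9%). Of those 19, 12 are among the 16.

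Both genotypes called 13 members, which are 13 of the 22 control calls and 13 of the 16 cKO calls, each in the same direction. Of these, 3 were higher, among them Gabra5 and Grik3, and 10 were lower, among them Gria1, Gria2, Gria4, Grik1, Grin3a, Grm4, Grm5, Grm8 and Gabrb2. These comparisons share no library. How many of all tested genes were called in both genotypes, and in which directions, was not counted. The overlap, the shared direction and the counts that follow therefore have no background here. A further 9 members were called in control mice (all lower, among them Gabra4, Gabrr3, Gabbr2, Grik4, Grik5, Grin1, Grm7 and Glrb) and 3 in cKO mice (Gabbr1 higher and 2 lower, with Gabrg3 among them).

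**Figure D2:**
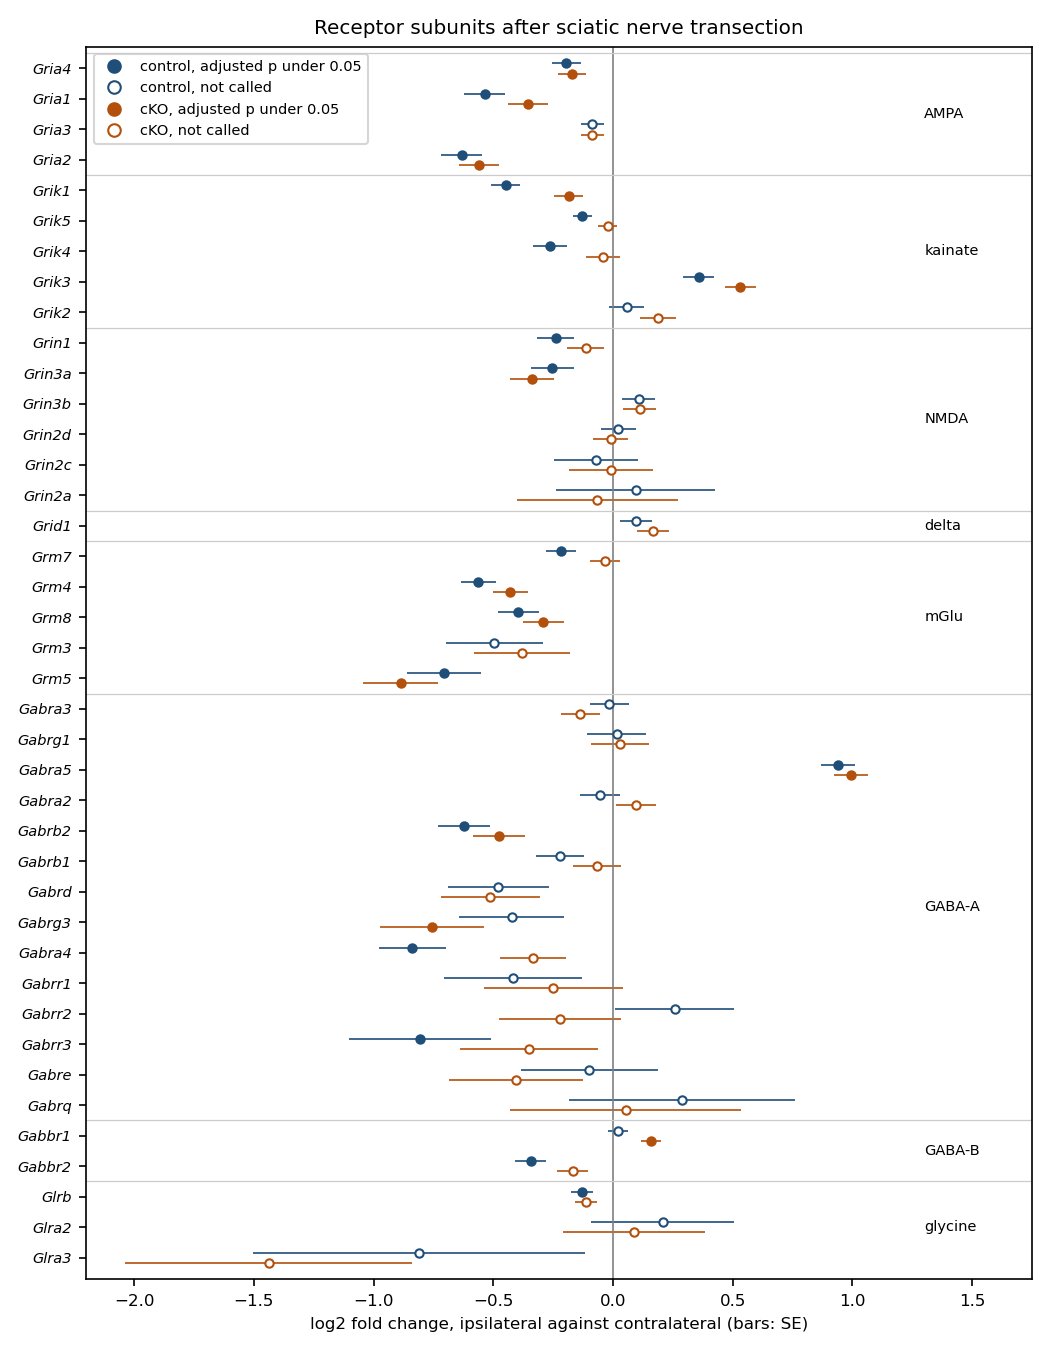
Log2 fold change, ipsilateral against contralateral, of the tested subunits described here in control (blue) and cKO (orange) mice, with bars of 1 standard error (edgeR, 5 libraries a group); filled points passed an adjusted p of 0.05. Gabra5 stands apart on the right in both genotypes, and most AMPA and mGlu subunits lie left of 0.

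Gabra5 rose most among the members called higher. It encodes the alpha5 subunit of GABA-A receptors that, in the brain, lie mostly outside synapses. In control mice H62, H63, H65, H96 and H97 the contralateral values were 7.39, 8.37, 9.35, 8.66 and 8.92 CPM, and the ipsilateral values of the same mice were 16.4, 17.4, 16.1, 14.9 and 17.1 CPM. In cKO mice H61, H64, H95, H99 and H100 the contralateral values were 8.999, 8.20, 7.56, 8.76 and 7.51 CPM and the ipsilateral values 18.3, 17.5, 15.3, 15.3 and 15.3 CPM. Each ipsilateral library lay above each contralateral library, and the genotypes overlapped on each side. The log2 fold change was 0.94 ± 0.07 (SE; adjusted p = 1.89e-09, edgeR) in control and 0.99 ± 0.07 (adjusted p = 6.39e-10) in cKO mice, a level 1.92 and 1.99 times the contralateral one.

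Gabra5 moved from 12.0% ± 1.41 to 24.1% ± 1.40 of the alpha subunit mRNA per kilobase in control mice (SD, n = 5), and from 12.6% ± 1.19 to 23.8% ± 1.83 in the knockout. Gabra2 and Gabra3 were not called in either genotype. Gabra2, for instance, had 31.6 ± 2.67 CPM contralaterally and 30.4 ± 1.14 CPM ipsilaterally in control mice.

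Of the 17 tested GABA-A subunits, 6 were called in control mice (background 29.9%) and 4 in cKO mice (background 31.3%). Those other than Gabra5, 5 in control and 3 in cKO mice, were lower after injury (background 16.0% and 15.1% lower). The 3 of 17 in cKO mice lie near that background. Gabrb2, which forms part of the GABA site, had 15.4, 14.4, 14.9, 12.5 and 16.2 CPM contralaterally and 9.57, 9.19, 9.79, 9.27 and 9.86 CPM ipsilaterally in control mice, with no overlap. Its contralateral values in cKO mice were 15.4, 12.4, 11.0, 16.1 and 10.04 CPM and the ipsilateral values 9.58, 8.84, 8.25, 11.0 and 9.03 CPM. The 3 lowest contralateral cKO values belonged to the fibroblast-rich libraries. The log2 fold changes were -0.62 ± 0.11 and -0.48 ± 0.11 (adjusted p = 1.50e-04 and 0.00188, edgeR), and -0.75 in cKO mice without those 3 libraries.

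Gabra4, which pairs with the delta subunit outside synapses, had 1.48 to 2.07 CPM contralaterally and 0.720 to 1.06 CPM ipsilaterally in control mice and fell (-0.84 ± 0.14, adjusted p = 7.96e-05, edgeR). In cKO mice it was -0.34 ± 0.14 (adjusted p = 0.0696) with all libraries and -0.48 without the fibroblast-rich ones, where it was called (adjusted p = 0.0450). Gabrr3, a rho subunit at 0.201 to 0.465 CPM contralaterally, was also called lower in control mice (-0.81 ± 0.30, adjusted p = 0.0436), a call lost without any of H61, H63, H95, H96 or H97 (adjusted p = 0.0573 to 0.163) and with no filter on low counts (0.0611).

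Gabrg3 was called in cKO mice at -0.76 ± 0.22, but 3 of the 5 mice were lower ipsilaterally. Its contralateral values of 5.61 and 5.81 CPM in H95 and H100, both fibroblast-rich, stood above those of the other 3 mice (3.25, 2.09 and 2.93 CPM). The call was lost without H95 (-0.53, adjusted p = 0.09999, edgeR), with only the libraries compared (adjusted p = 0.0851) and without the fibroblast-rich libraries (-0.40, adjusted p = 0.0852). In control mice Gabrg3 was -0.42 and was called with only the libraries compared (adjusted p = 0.00511) and without the fibroblast-rich libraries (0.0148). Gabrd was -0.48 in control and -0.51 in cKO mice and was not called. It passed in cKO mice with the mouse as a block (adjusted p = 0.0208), with only the libraries compared and without H62, and in control mice without H62. Gabrb1, Gabrg1, Gabre, Gabrq, Gabrr1 and Gabrr2 were not called in either genotype, with log2 fold changes from -0.42 (Gabrr1) to 0.29 (Gabrq). Of these, Gabrb1 was called lower in control mice with only the libraries compared, without H64 and without the fibroblast-rich libraries (-0.21, adjusted p = 0.0235).

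The GABA-B genes did not move alike. Gabbr2 was lower in control mice, where it went from 279 to 311 CPM to 221 to 237 CPM without overlap (log2 fold change -0.34 ± 0.06, adjusted p = 2.95e-04, edgeR). In cKO mice it was -0.17 ± 0.06 (adjusted p = 0.0515), -0.16 with the mouse as a block (adjusted p = 0.0422) and -0.34 without the fibroblast-rich libraries (adjusted p = 6.98e-05). Gabbr1 had 502 ± 16.8 CPM contralaterally and 509 ± 8.71 CPM ipsilaterally in control mice and was not called.

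Gabbr1 was called higher in cKO mice, with 461 ± 36.1 CPM contralaterally and 514 ± 15.5 CPM ipsilaterally (log2 fold change 0.16 ± 0.04, adjusted p = 0.00610, edgeR). Without the fibroblast-rich libraries that difference was 0.07 and was no longer called (adjusted p = 0.277). Gabbr2 made up 40.3% ± 0.543 of GABA-B mRNA per kilobase contralaterally and 34.4% ± 0.693 ipsilaterally in control mice, and 39.6% ± 1.49 and 34.4% ± 0.477 in cKO mice.

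Of the glycine receptor genes, Glrb was called lower in control mice (-0.13 ± 0.05, adjusted p = 0.0434, edgeR), from 184 ± 9.87 to 168 ± 5.75 CPM. The call was lost without H61, H63, H64, H65, H95, H96, H97 or H100 (adjusted p = 0.0513 to 0.273), with RLE size factors (0.0614), with DESeq2 (0.0513) and with no filter on low counts (0.0973). In cKO mice the value was -0.11 (adjusted p = 0.0737), and it passed with the mouse as a block (adjusted p = 0.0338), without H95 (0.0372) and without the fibroblast-rich libraries (-0.21, adjusted p = 0.00612).

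**Figure D3:**
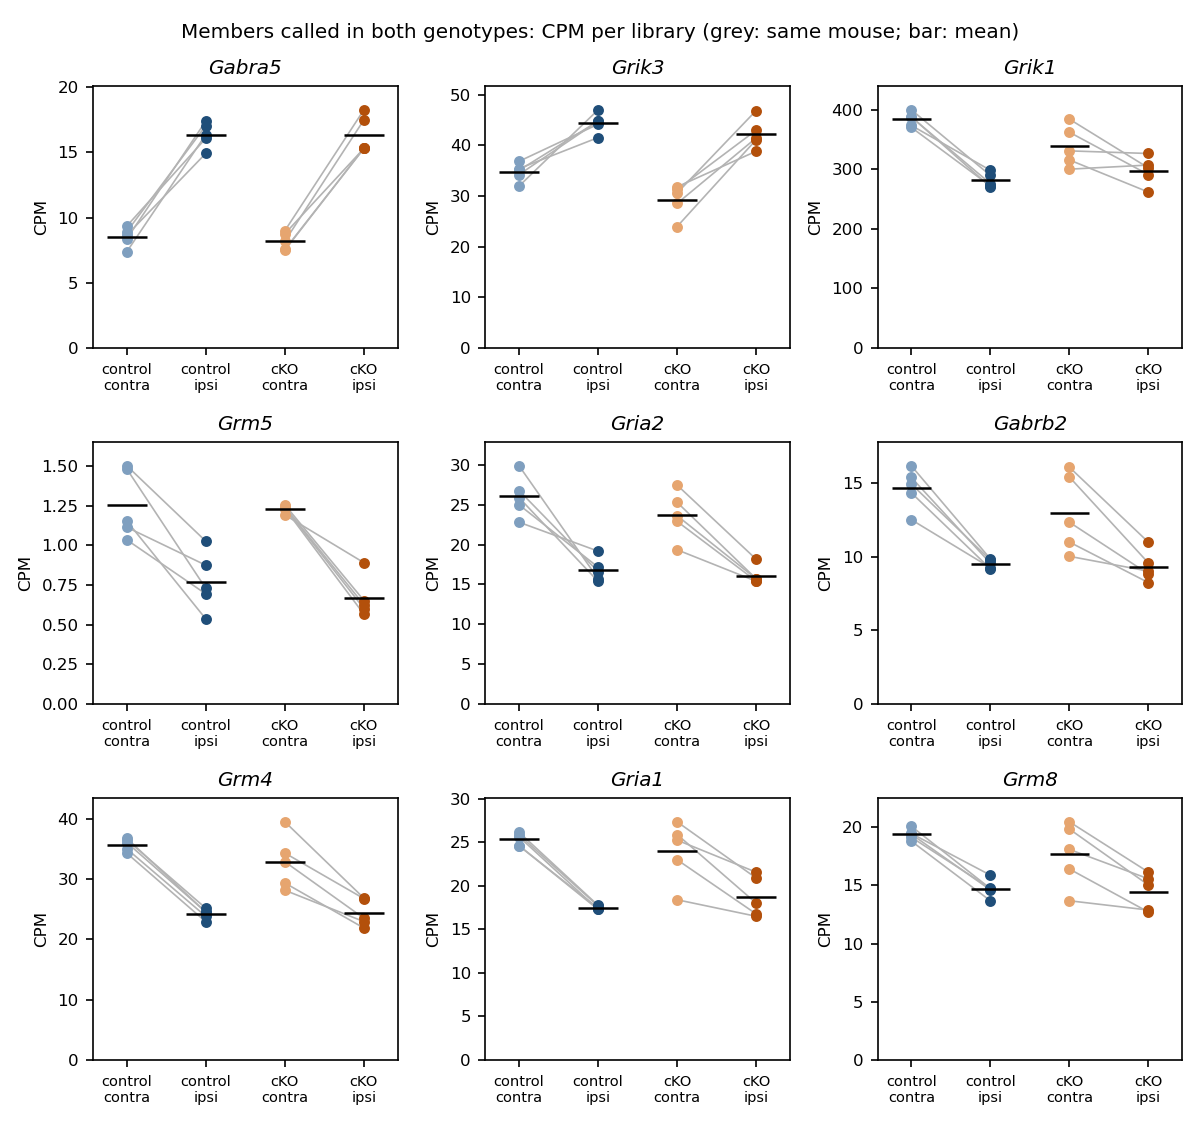
CPM in each library for 9 members called in both genotypes, with grey lines joining the contralateral and ipsilateral ganglia of 1 mouse and black bars at the group means. Gabra5 rises in all 10 mice with no overlap between the sides, and Gria2 and Grm4 fall with no overlap in either genotype.

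The AMPA subunits Gria1, Gria2 and Gria4 were lower on the lesioned side in both genotypes, and Gria3 was not called. Gria2 had 22.8, 24.99, 26.8, 25.9 and 29.9 CPM contralaterally in control mice and 19.2, 17.2, 16.6, 15.4 and 15.7 CPM ipsilaterally. In cKO mice the values were 25.3, 19.3, 22.9, 27.5 and 23.6 CPM contralaterally and 15.7, 15.4, 15.4, 18.2 and 15.7 CPM ipsilaterally. The lowest contralateral value of each genotype lay above the highest ipsilateral one. The log2 fold change was -0.63 ± 0.08 in control and -0.56 ± 0.08 in cKO mice (adjusted p = 6.06e-06 and 2.52e-05, edgeR), so the level fell by 35.5% and fell by 32.2%.

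Gria1, the subunit most studied in synaptic plasticity, fell from 24.6 to 26.2 CPM to 17.3 to 17.8 CPM in control mice, narrow and separate ranges (-0.54 ± 0.08). In cKO mice it had 18.4 to 27.4 CPM and 16.5 to 21.6 CPM (-0.36 ± 0.08), and the ranges overlapped. Gria4 was called in both at -0.19 ± 0.06 and -0.17 ± 0.06 (adjusted p = 0.0167 and 0.0332, edgeR). These calls were lost without H63, H65, H96 or H97 in control mice (adjusted p = 0.0636 to 0.0863) and without H61, H64, H99 or H100 in the knockout (0.0548 to 0.114). The cKO call was also lost with no filter (0.109) and with only the libraries compared (0.0841), and the value was -0.29 without the fibroblast-rich libraries (adjusted p = 0.00347). The share of Gria2 in AMPA mRNA per kilobase went from 7.59% ± 0.326 to 5.91% ± 0.466 in control mice and from 7.09% ± 0.425 to 5.60% ± 0.189 in the knockout (SD, n = 5), while that of Gria4 went from 61.7% ± 1.70 to 65.1% ± 1.31 and from 62.9% ± 2.26 to 64.96% ± 1.74.

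The kainate subunits moved in opposite directions. Grik3, which encodes the low-affinity GluK3, had 32.0, 35.1, 34.2, 36.9 and 35.4 CPM contralaterally and 47.0, 44.8, 44.8, 44.2 and 41.5 CPM ipsilaterally in control mice. In cKO mice it had 28.5, 30.6, 31.3, 31.8 and 24.0 CPM contralaterally and 41.5, 46.9, 43.0, 38.8 and 41.1 CPM ipsilaterally. The sides were apart in both genotypes, and the log2 fold change was 0.36 ± 0.06 in control and 0.53 ± 0.06 in cKO mice (adjusted p = 1.80e-04 and 1.49e-06, edgeR).

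Grik1 went the other way, with 399.5, 370.0, 373, 387 and 388 CPM contralaterally and 289.6, 272, 298, 276 and 270.4 CPM ipsilaterally in control mice. In cKO mice it had 362, 315, 300.0, 384 and 331 CPM contralaterally and 291, 262, 307, 302 and 326 CPM ipsilaterally, so that H95 was not lower on the lesioned side and the ranges overlapped. The log2 fold change was -0.45 ± 0.06 in control and -0.19 ± 0.06 in cKO mice (adjusted p = 5.80e-06 and 0.0209, edgeR). The cKO call was lost without H61 (-0.15, adjusted p = 0.105), without H99 (-0.14, adjusted p = 0.0859), with no filter (adjusted p = 0.0826) and with only the libraries compared (adjusted p = 0.123). It was -0.32 without the fibroblast-rich libraries (adjusted p = 6.62e-04).

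Grik4 was called lower in control mice at -0.26 ± 0.07 and Grik5 at -0.13 ± 0.04. In cKO mice they were -0.04 and -0.02 and were not called, and without the fibroblast-rich libraries Grik4 was -0.24 (adjusted p = 0.00427, edgeR) and Grik5 -0.08 (adjusted p = 0.0909). The Grik5 call was lost without H63, H65, H96 or H97 (adjusted p = 0.0546 to 0.0975) and with no filter (0.0560). Grik2 was not called in either genotype with all libraries in edgeR, and it was called in cKO mice with DESeq2 and without H61 or H96.

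Among NMDA subunits Grin1 was lower in control mice, from 97.04 to 117 CPM to 89.5 to 97.4 CPM (-0.24 ± 0.08, adjusted p = 0.0217, edgeR), and was -0.11 ± 0.08 in cKO mice (adjusted p = 0.279). Without the fibroblast-rich libraries the cKO value was -0.28 and was called (adjusted p = 0.0159). The control call was lost without H63, H65, H96 or H97 (adjusted p = 0.0565 to 0.0953) and with no filter (0.0808). The antisense Grin1os, which overlaps it, was -0.22 and -0.09 and was called in control mice as well, a call lost without H63, H65, H96 or H97 (adjusted p = 0.0709 to 0.108) and with no filter (0.0643). Without the fibroblast-rich libraries it was also called in cKO mice (-0.26, adjusted p = 0.0173). Grin3a was called in both genotypes, at -0.25 ± 0.09 and -0.34 ± 0.09. The control call did not hold with the mouse as a block (adjusted p = 0.0765), with no filter (0.112) or without H61, H63, H65, H96, H97 or H99 (adjusted p = 0.0573 to 0.229), and the cKO call was lost without H95 (-0.23, adjusted p = 0.0589). Grin2a, Grin2c, Grin2d and Grin3b were not called.

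Of the delta receptor genes, whose products bind cerebellins, Grid1 was 0.10 in control and 0.17 in cKO mice, with 15.5 to 19.3 CPM contralaterally and 18.4 to 21.0 CPM ipsilaterally in the latter. It was not called with all libraries and no block (adjusted p = 0.0666 in cKO mice, edgeR). It passed in cKO mice with the mouse as a block (0.0311), with only the libraries compared (0.0462), with DESeq2 (0.0438), without H62 (0.0260) and without H99 (0.0347). Without the fibroblast-rich libraries it was 0.09 (adjusted p = 0.492).

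Each of the 6 tested mGlu genes had a negative log2 fold change in both genotypes, and 4 were called lower in each (background 16.0% lower in control and 15.1% in cKO mice). Grm4 had 36.8, 36.1, 36.5, 34.3 and 35.0 CPM contralaterally and 24.5, 24.5, 25.2, 22.9 and 23.8 CPM ipsilaterally in control mice, and 28.2 to 39.5 CPM against 21.9 to 26.9 CPM in cKO mice. It was lower in all 10 mice, without overlap, at -0.56 ± 0.07 and -0.43 ± 0.07 (adjusted p = 3.89e-06 and 9.52e-05, edgeR). Grm8 was called at -0.40 ± 0.09 and -0.29 ± 0.09, the latter not with only the libraries compared (adjusted p = 0.0962) and at -0.47 without the fibroblast-rich ones. Grm7 was called in control mice at -0.22 ± 0.06, a call lost without H97 (-0.15, adjusted p = 0.112), and was -0.03 in the knockout, or -0.15 without the fibroblast-rich libraries (adjusted p = 0.0604).

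Grm5 was scarce, with 1.034 to 1.501 CPM contralaterally and 0.536 to 1.025 CPM ipsilaterally in control mice and 1.19 to 1.25 CPM against 0.566 to 0.890 CPM in the knockout. It was lower in all 10 mice, at -0.71 ± 0.15 and -0.89 ± 0.16 (adjusted p = 0.00125 and 1.37e-04, edgeR), and these were the most negative log2 fold changes among the members called in both genotypes. Grm3 was -0.50 and -0.38 and was not called in either genotype with all libraries. Without the fibroblast-rich libraries it was called in both, at -0.49 in control and -0.62 in cKO mice (adjusted p = 0.0118 and 0.0157, edgeR). It also passed with only the libraries compared in control mice and without H64 in both genotypes.

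**Figure D4:**
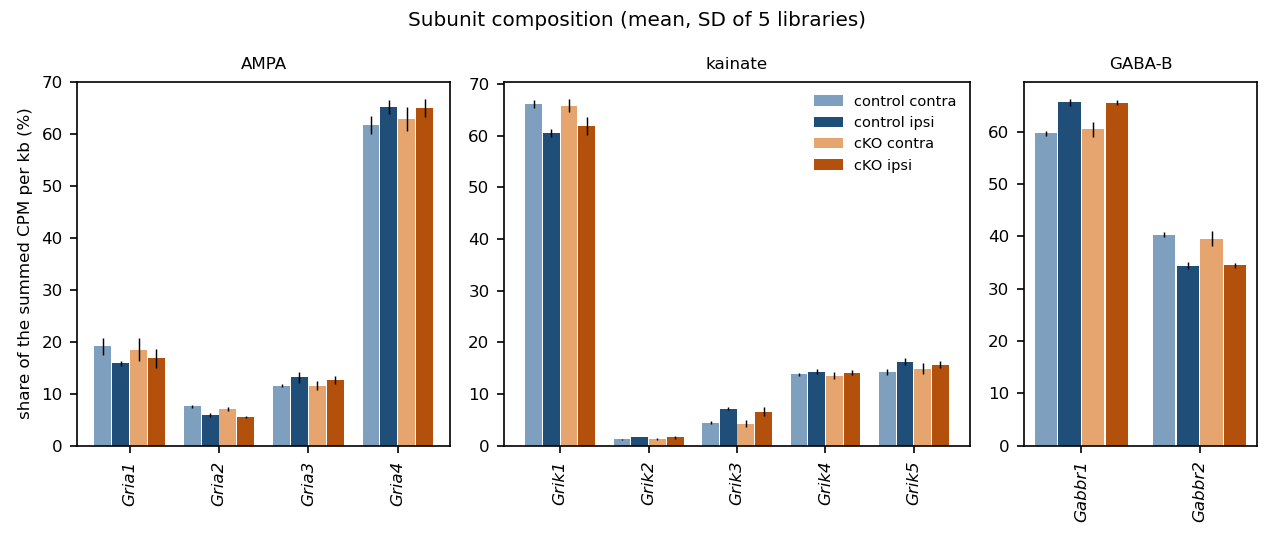
Share of each subunit in the summed CPM per kilobase of its class, as the mean with SD of 5 libraries, in the 4 groups, for AMPA, kainate and GABA-B receptors. After injury the Grik3 share goes from 4.49% to 7.18% in control mice, the Gria2 share from 7.59% to 5.91% and the Gabbr2 share from 40.3% to 34.4%.

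Beside these changes, sensory neuron markers gave 7 of 19 called after injury in control mice, 1 higher and 6 lower (background 29.9%), and 5 of 19 in cKO mice, 1 higher and 4 lower (background 31.3%). Their median log2 fold changes were -0.05 and -0.07, against -0.21 and -0.14 for the receptor members. Summed neuron markers were 14256 to 16215 CPM contralaterally and 14127 to 15618 CPM ipsilaterally in control mice. The median of the 7 fibroblast markers was 0.34 in control and -0.64 in cKO mice. Macrophage markers had medians of 0.46 and 0.12, with 2 and 0 of 12 called, against the same background. Of 7 endothelial markers, 7 had positive log2 fold changes in control mice (median 0.38, 2 called), and in cKO mice the median was -0.01 with 0 called. Of 6 satellite glia markers, 3 were called in control mice, 2 of them higher, and 2 in cKO mice, 1 in each direction. The 7 tested muscle markers had a median of 0.43 in control and -3.08 in cKO mice, with 0 called in either. The part of cell composition in the receptor values was not tested.

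Whether the lesion acted differently in the genotypes was asked with their interaction. There edgeR called 0 of 45 members and 0 of 28564 genes (background 0%). At an unadjusted p under 0.05 there were 4 members (8.89%), against 9.80% of all genes. These were Grik1 (interaction 0.26 on the log2 scale), Gabra4 (0.50), Gabbr1 (0.14) and Grik4 (0.22), with adjusted p of 0.485 to 0.498 (edgeR). DESeq2 called 11 genes and 0 members. With the mouse as a block, 11 of 45 members had an unadjusted p under 0.05, a share above the background of 11.4%, and 0 were called. Without the fibroblast-rich libraries, 0 of 47 members had an unadjusted p under 0.05 (background 3.24%). The members called in 1 genotype and not in the other are therefore not shown to differ between genotypes.

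The genotypes were then compared on each side. On the contralateral side 0 of 45 members were called (edgeR; background 0.0735%). At an unadjusted p under 0.05 there were 8 members (17.8%), all lower in cKO mice, against 17.5% of all genes and 9.53% lower. Of the 45 log2 fold changes 34 were negative, as were 16 of 19 for the sensory neuron markers. The share of negative values over all genes was not counted. The median was -0.06 for the members and -0.01 for all tested genes. Among the 8 were the kainate genes Grik1, Grik3, Grik4 and Grik5 and both GABA-B genes.

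Grik3 had the smallest p of these. Its control values of 32.0 to 36.9 CPM lay above its cKO values of 24.0 to 31.8 CPM, the only member without overlap (2.22%, background 1.52%). The log2 fold change was -0.25 ± 0.06 with an adjusted p of 0.103 in edgeR and -0.24 with an adjusted p of 0.0197 in DESeq2, where it was the only member called (2.22%, background 3.61%). Grik1 averaged 384 ± 12.0 CPM in control and 338 ± 34.2 CPM in the knockout (-0.18 ± 0.06, adjusted p = 0.139, edgeR). The cKO spread was wider than the control spread for Gabbr2, which ran from 229 to 318 CPM in cKO and from 279 to 311 CPM in control mice.

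The count depended on 1 mouse. Without H99, the cKO mouse with the highest neuron marker sum, 10 members were called, all lower in cKO mice (background 11.5% called, 6.52% lower). The 10 were the 8 above with Grin1 (-0.19, adjusted p = 0.0276, edgeR) and Grm4 (-0.19, adjusted p = 0.0377). Gabbr2 stood at -0.24 (adjusted p = 0.00550) and Grik1 at -0.23 (adjusted p = 0.0156). With the 3 fibroblast-rich libraries left out, 2 contralateral cKO libraries remained, H61 and H99, those with the highest neuron marker sums of that group. In that fit 0 of 47 members were called (background 0.00668%) and 2 had an unadjusted p under 0.05 (background 3.76%). The members' median log2 fold change was 0.01, against -0.06 with all libraries. Fibroblast markers differed between the genotypes on this side by a median log2 difference of 0.85, with 7 of 7 higher in cKO mice, 0 called and 6 at an unadjusted p under 0.05 (background 17.5%). Macrophage markers had a median difference of 0.32, with 12 of 12 positive, 0 called and 1 at an unadjusted p under 0.05. Sensory neuron markers had a median of -0.03, with 16 of 19 negative, 0 called and 4 at an unadjusted p under 0.05. The other medians were 1.25 (muscle), 0.73 (neutrophil), 0.47 (erythroid), 0.14 (endothelium), 0.01 (Schwann cell), 0.01 (spinal cord), -0.05 (satellite glia) and -0.48 (lymphocyte). In each of these lists 0 were called. The part of these cell types in the receptor values was not tested.

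**Figure D5:**
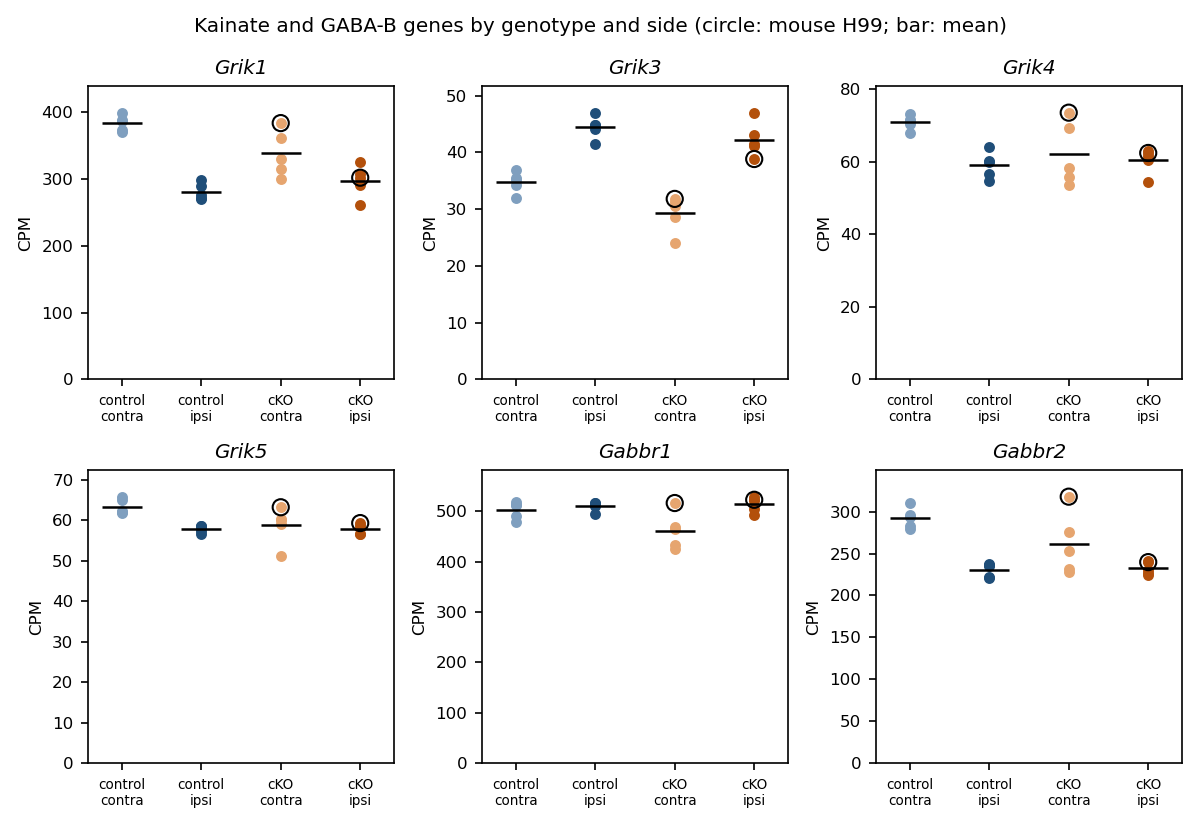
CPM per library of 6 kainate and GABA-B genes with an unadjusted p under 0.05 between the genotypes on the contralateral side, in all 4 groups, with bars at the means and the libraries of mouse H99 circled. In most panels the contralateral cKO values spread downward from the control range while H99 stays inside or above it, and on the ipsilateral side the genotypes overlap.

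On the ipsilateral side 0 of 45 members were called (edgeR; background 0.00700%), and 0 had an unadjusted p under 0.05, against 2.36% of all genes. Grik1 averaged 281 ± 12.1 CPM in control and 298 ± 23.8 CPM in the knockout, and Grik3 had 44.5 ± 1.96 and 42.3 ± 2.98 CPM. Gabbr2 had 230.4 ± 8.20 and 233 ± 7.55 CPM. For Gabra4 the genotypes did not overlap, with 0.720 to 1.06 CPM in control and 1.09 to 1.40 CPM in cKO mice (adjusted p = 1.00, edgeR), 1 of 45 members (2.22%, background 0.599%). Summed kainate mRNA stood at 458 ± 16.9 and 473 ± 23.7 CPM, and GABA-A mRNA at 370.4 ± 10.3 and 375 ± 11.3 CPM.

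Receptor partners were read from a list of 62 genes for auxiliary subunits, scaffolds, assembly factors, transmitter supply and uptake, and chloride transport, of which 60 were tested. After injury 32 were called in control mice, 16 in each direction, and 28 in cKO mice, 15 higher and 13 lower. The background for these counts, and for those of the single lists that follow, is 29.9% of all tested genes called in control mice (13.8% higher, 16.0% lower) and 31.3% in cKO mice (16.2% higher, 15.1% lower). The median log2 fold change of the 60 was -0.02 in control and -0.03 in cKO mice. On either side 0 of the 60 were called between genotypes (edgeR; background 0.0735% contralaterally and 0.00700% ipsilaterally). Without H99, 11.5% of all genes were called contralaterally and 6.52% were lower in cKO mice. Among the partners named below, Cacng2 (-0.24, adjusted p = 0.0329, edgeR), Slc1a1 (-0.29, adjusted p = 0.0300) and Nlgn2 (-0.16, adjusted p = 0.0131) were then called lower there.

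Auxiliary subunits of glutamate receptors split, with 4 of 13 higher and 3 lower in control mice and 5 higher and 5 lower in the knockout. Cacng2, which encodes stargazin, the factor that brings AMPA receptors to the surface, fell from 26.8 to 30.7 CPM to 19.2 to 21.1 CPM in control mice (-0.53, and -0.41 in cKO mice, or -0.62 there without the fibroblast-rich libraries). Cnih2, a cornichon that aids their export, had 20.5 to 23.0 CPM and 15.4 to 17.2 CPM there (-0.41 and -0.47). Shisa9, an auxiliary AMPA receptor subunit, rose from 0.417 to 0.7099 CPM to 1.196 to 1.94 CPM in control mice and from 0.241 to 0.620 CPM to 1.24 to 2.23 CPM in the knockout, without overlap (1.47 and 1.82, adjusted p = 1.33e-05 and 1.06e-06, edgeR). Neto2, a kainate receptor partner, was higher while Grik1 was lower, with 35.4 ± 0.925 and 54.9 ± 2.99 CPM in control (0.63) and 33.3 ± 6.44 and 57.2 ± 6.02 CPM in cKO mice (0.78).

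Of 14 scaffold genes 1 was higher and 4 lower in control mice and 4 were higher and 3 lower in the knockout. Of 13 assembly genes for GABA and glycine receptors, 6 were higher and 5 lower in control mice and 3 were higher and 3 lower in the knockout. Lhfpl4, which holds GABA-A receptors at inhibitory synapses, was lower (-0.32 and -0.25, the latter -0.37 without the fibroblast-rich libraries), and Nlgn2, an adhesion protein of those synapses, was higher (0.25 and 0.38). Ajap1, which binds the GABA-B receptor, rose from 0.398 to 0.761 CPM to 0.824 to 1.58 CPM in control mice (0.96, and 0.93 in cKO mice).

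Genes of glutamate supply and uptake gave 3 higher and 2 lower of 9 in control mice and 3 higher and 1 lower in the knockout. The glutamate transporter gene Slc1a2 rose from 6.33 to 7.74 CPM to 9.62 to 14.2 CPM (0.84, and 0.79 in cKO mice), and the neuronal transporter gene Slc1a1 was lower (-0.49 and -0.38). Genes of GABA and glycine supply gave 2 higher and 2 lower of 9 tested in control mice and 1 lower in the knockout. Slc12a2, the chloride importer that sets the GABA-A driving force in these neurons, had 176 ± 4.38 CPM contralaterally and 173 ± 10.4 CPM ipsilaterally in control mice, and neither it nor the exporter Slc12a5 was called.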

How the data were processed

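Stranded Illumina mRNA libraries of DRG were sequenced as paired 150 bp reads. The authors deposited a table of exonic read counts per gene, whole numbers with no normalisation. HISAT2 and Picard, and the builds mm10 and mm39, are named without roles in the submitters' processing notes; the counting program, annotation release and strand setting are not given in the sources used here. The authors' FPKM table of the same libraries was not used here. Symbols and merged exon lengths came from GENCODE M21 by identifier: 51487 of 78258 genes had a symbol, with 98.1% of counts. Replicate libraries differed beyond counting error (chi-square per degree of freedom 5.14 to 56.0 over 40 pairs). P-values therefore rest on the spread between mice.

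Counts were fitted with edgeR 4.0.16 in R 4.3.3 (TMM, filterByExpr with a minimum count of 10 and total of 15, robust quasi-likelihood F-test). All 20 libraries entered 1 model with 4 group means. The 5 comparisons were injury in each genotype, genotype on each side, and their interaction. Benjamini-Hochberg adjustment covered all 28564 tested genes of a comparison, and genes were called at an adjusted p under 0.05. Fold changes are log2 with standard errors. The script was tested on simulated data. Alternatives were RLE size factors, DESeq2 1.42.0, no filter, only the libraries compared, the mouse as a replicate block, leaving out each mouse, and, added after seeing the data, leaving out the 3 fibroblast-rich contralateral cKO libraries. Both libraries of a mouse carry its number in the labels, which pairs them: their deviations from the group means correlated with a median r of 0.186 over 10 mice (-0.0546 to 0.361, over 0.1 in 7). One title gives a shortened mouse number, and the library name was used.

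Members, partner genes, markers and tests were chosen with earlier results of these data known. The naming rule took members called in both genotypes in the same direction with at least 1 CPM in a group (up to 6 each way by size), the highest member of each class per kilobase and 3 partners each way; other genes were named after their values were seen. Promoters of 36 members came from RefSeq. Results of some members are not reported here; counts over the members include them.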

Additional observations from a re-analysis of the deposited data

Results flagged for a closer look

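In 33 genes and 4 groups of 5 libraries, 132 sets of values were screened for a single library far from the rest, by the gap to its nearest neighbour as a share of the group's range. Chance marks about 1 set in 20, or 6.60 of 132, and 6 were marked. Among ipsilateral cKO libraries, Gria2 stood high in H99 (18.2 CPM, others 15.4 to 15.7 CPM, gap 0.887 of the range). Mouse H100 stood high for Grm5 (0.890 CPM, others 0.566 to 0.652 CPM, gap 0.734) and Gabrr3 (0.382 CPM, others 0.215 to 0.261 CPM, gap 0.724). Among ipsilateral control libraries, Gabra4 was low in H63 (0.720 CPM, others 1.05 to 1.06 CPM, gap 0.959) and Gabbr1 was low in H97 (494 CPM, others 509 to 516 CPM, gap 0.713). Among contralateral control libraries, Slc12a5 was low in H65 (0.606 CPM, others 0.997 to 1.06 CPM, gap 0.858).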

How the results depend on the processing

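The 51 called injury values of the receptor and partner genes named were recomputed under 16 alternatives: 37 kept their call and direction under each, 14 lost it under at least 1, and 0 reversed. The count of members called after injury ranged over leaving out each mouse from 15 to 23 in control mice (22 with all) and from 13 to 18 in cKO mice (16 with all), while 23.7% to 30.9% and 24.9% to 31.5% of all genes were called. The replicate block, in which the libraries pair by mouse, gave 21 and 20; it ended the call of Grin3a in control mice, added Gabbr2, Gabrd, Glrb and Grid1 in cKO mice, and changed no other injury call of the members described here. No filter gave 17 and 13 of 52 members, with 12.6% and 13.1% of 56837 genes called. The contralateral genotype comparison called 21 genes in all, 1030 with DESeq2, 50 with no filter, 2 with only the libraries compared, 2 without the fibroblast-rich libraries, and 4 to 3326 leaving out each mouse (3326 without H99). Its member count was 0, against 1 with DESeq2 and 0 to 10 leaving out each mouse. The interaction called 0 genes, 11 with DESeq2 and 0 to 43 leaving out each mouse (43 without H99); members stayed at 0 under each alternative run. The causes of these shifts were not tested. No paired fit of genotype on a side is possible, since genotype is constant within a mouse.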
